A study of Mus musculus with 4 samples.

Results

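The transcripts described here are those of 9 genes of proximal T cell receptor signaling, namely Lck, Fyn, Zap70, Lat, Lcp2, Ptpn22, Cd2, Cd5 and Cd6, the genes whose products act at or just inside the membrane when the receptor is engaged. They were chosen by symbol from the 55367 genes in the count tables, and all 9 were present and passed the filter on low counts. RNA was measured in 4 mouse libraries of polyadenylated RNA from B16-F10 tumors, a transplanted mouse melanoma, from which CD45.2+CD8+ cells were sorted according to the protocol, CD45.2 marking leukocytes and CD8 being the coreceptor of cytotoxic T cells. The titles name 2 libraries WT and 2 libraries KO, without a genotype for either group. The series names WT mice and Satb1 F/F mice that carry either ThPOK-cre or E8I-cre, and no label ties the libraries titled KO to one of these drivers. ThPOK-cre is active from commitment of thymocytes to the CD4 lineage, and E8I-cre acts in mature CD8 cells, so the cells that lose Satb1 differ between the drivers. The study's methods give the WT mice of the tumor model as C57BL/6 and the animals as young adults of mixed sexes. The sources used here do not state whether each library came from 1 animal or from pooled animals, so the p-values measure the spread between these libraries only.

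When a T cell receptor binds its ligand, LCK, a Src family kinase held at the coreceptors CD4 and CD8, phosphorylates the CD3 and zeta chains, and the Syk family kinase ZAP-70 docks there. ZAP-70 then phosphorylates the adaptors LAT and SLP-76, the product of Lcp2, on which phospholipase C gamma and exchange factors assemble. FYN is a second Src family kinase of the pathway, PTPN22 is a phosphatase that removes the activating phosphates from LCK and ZAP-70, CD2 is an adhesion and costimulatory receptor, and CD5 and CD6 are scavenger-type receptors that tune the strength of the signal. Lck, Zap70, Lat, Cd5 and Cd6 are best known from T cells, although NK cells, mast cells, platelets and some B cells use part of them, whereas Lcp2, Fyn and Ptpn22 are transcribed widely among blood cells, myeloid cells included.

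Reads assigned to genes totaled 4017875 (WT 1), 4261025 (WT 2), 4479734 (KO 1) and 5382915 (KO 2). Counts of Satb1 and of T cell markers did not match the titles or the stated sort, and sex-linked genes differed between the groups. Satb1, the targeted gene, had 7 and 5 counts in the libraries titled WT and 131 and 55 in those titled KO, so that it was not lower in the libraries titled KO, although these counts cover the whole gene and not only a floxed part. Per 100 counts of the CD3 genes it had 6.03 and 2.78 against 4.07 and 2.82, a log2 ratio of -0.31 with 95% limits of -2.01 and 1.39, so that on this scale no loss was detectable either. Every direction below is that of the libraries as titled. Xist, expressed from the inactive X chromosome, had 435 and 216 counts against 0 and 3, and the Y-linked Ddx3y had 0 and 0 against 188 and 81, so that sex and group cannot be told apart. Cd8a, a marker of the sort, had 24 and 28 counts against 843 and 733. A list of 9 T cell identity genes, among them Cd3e, Cd8a and Trac, took 0.00612% and 0.0101% of gene counts in the libraries titled WT and 0.229% and 0.0947% in those titled KO, with no gene of the list at 0. A list of 12 macrophage or monocyte genes took 2.71% and 3.67% against 2.15% and 2.55%, lower in both libraries titled KO and also with none at 0. The 5 NK cell genes summed to 3 and 17 against 153 and 47 counts, with Klra8 at 0 in all libraries. The 7 melanoma genes took 0.0217% and 0.0254% against 0.232% and 0.1253%, and the 6 fibroblast or endothelium genes 0.00207% and 0.00192% against 0.136% and 0.0198%. The NK cell, melanoma and fibroblast or endothelium lists were thus higher in both libraries titled KO. Of the 5 NK cell genes, 4 and 1 were at 0 in WT 1 and WT 2, and 1 and 3 in KO 1 and KO 2. Only 1 of them passed the filter on low counts. The 5 B cell genes summed to 64 and 182 against 21 and 80 counts, ranges that overlap in counts but not as a share of gene counts, with Pax5 at 0 in all. The 3 CD4 or regulatory T cell genes summed to 152 and 189 against 125 and 174 counts and were likewise lower as a share. Foxp3 held most of that sum (146 and 156 against 120 and 132 counts, with 31.5% of its exon bases overlapped by other genes), while Cd4, with 6 and 30 against 3 and 35, overlapped. Lists for dendritic cells (8 genes, 0.00719% and 0.0156% against 0.0317% and 0.0109%), neutrophils (5 genes, 11 and 8 against 6 and 18 counts, with Mpo and Elane at 0 in all) and mast cells or platelets (6 genes, 1272 and 1080 against 329 and 2049 counts, with Cpa3, Mcpt4, Tpsb2 and Gp9 at 0 in all) overlapped between the groups. In bulk RNA, fewer cells of a type and less RNA per cell cannot be told apart. The part that any of these lists had in the results below was not tested.

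All members but Lcp2 lay higher in both libraries titled KO than in either titled WT (8 of 9 members, where 25.3% of the 11837 genes tested lay higher in this way). The members that rose past the threshold, an adjusted p of 0.05 in edgeR's quasi-likelihood test over all genes, were Lck, Zap70, Lat and Cd6 (4 of 9, where 0.549% of all genes tested were called higher). None was called lower, as were 0.0253% of all genes. At an unadjusted p under 0.05, 7 of 9 were higher, against 9.44% of all genes, and none was lower, against 4.23%. Cd2 and Cd5 joined them in DESeq2 and in edgeR without a filter on low counts, so that 6 of 9 were called higher, where 2.36% and 2.38% of all genes were. The median log2 fold change of the members was 3.49, with a range from -0.16 to 4.89, beside a median of 0.05 over all genes tested, and it was 2.77 without KO 2. The 3 CD3 genes Cd3e, Cd3d and Cd3g, which encode the signaling chains of the receptor itself, had log2 fold changes of 3.65, 3.53 and 3.58. By value, Lck, Zap70, Cd5 and Cd6 lay above the CD3 chains, Lat lay just below them, and Cd2, Ptpn22, Fyn and Lcp2 followed in that order.

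**Figure D1:**
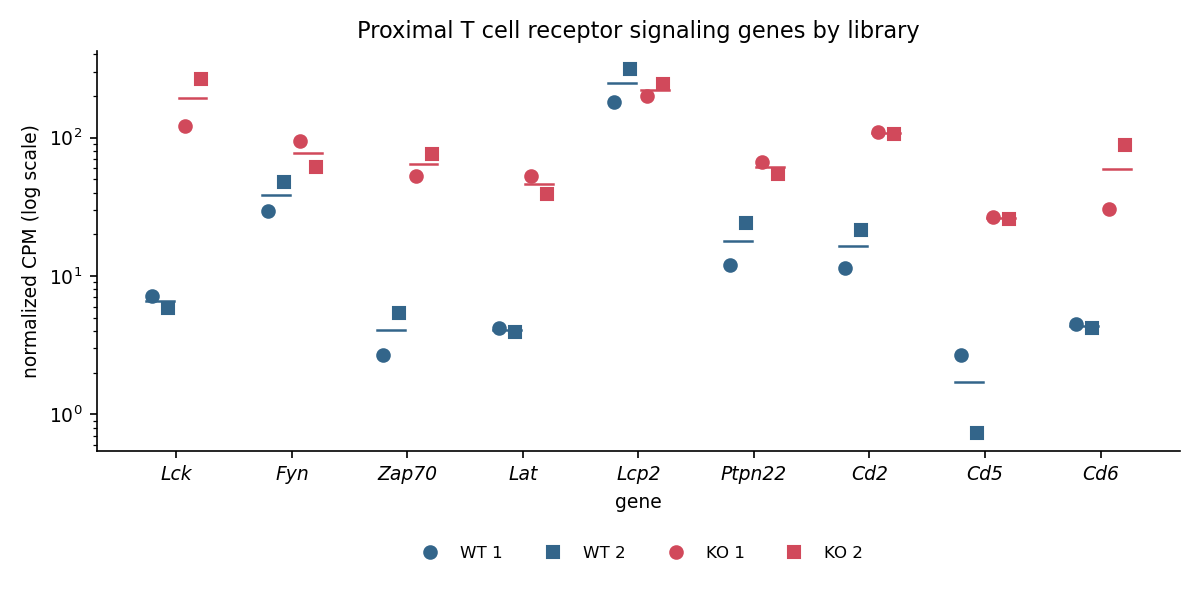
Normalized CPM of each member (y axis, log scale) by gene (x axis) in the 4 libraries, with circles for library 1, squares for library 2, blue for WT, red for KO, and bars at the arithmetic mean of 2 libraries. For 8 genes both KO points lie above both WT points, by the widest margin for Lck, and for Lcp2 the points of the groups interleave.

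The windows before the start sites of several members are shown because some members passed the threshold and others did not. RefSeq start sites on GRCm38.p6 (the mm10 build) gave 11 windows for 7 of the members, each the 250 bases before a start, read in the direction of transcription. Lck has an upstream start, known as the distal promoter of mature T cells, and a downstream start, known as the proximal promoter of thymocytes, and the counts per gene do not separate them. Capitals mark matches on either strand to AGGAAG (an ETS core), TGTGGT (a RUNX core), CTTTGA or CTTTGT (TCF/LEF cores) and GGGCGG (a GC box), none of which overlapped one another. Lck, Zap70 and Lat are members past the threshold, and Fyn and Lcp2 are members that were not.
Lck, upstream start, chr4:129573642-129573891, minus strand: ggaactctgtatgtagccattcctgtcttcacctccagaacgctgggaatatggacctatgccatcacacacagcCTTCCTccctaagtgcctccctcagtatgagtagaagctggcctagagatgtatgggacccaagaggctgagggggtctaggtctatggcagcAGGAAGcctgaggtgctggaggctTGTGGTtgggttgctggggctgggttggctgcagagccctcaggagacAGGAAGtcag
Lck, downstream start, chr4:129558373-129558622, minus strand: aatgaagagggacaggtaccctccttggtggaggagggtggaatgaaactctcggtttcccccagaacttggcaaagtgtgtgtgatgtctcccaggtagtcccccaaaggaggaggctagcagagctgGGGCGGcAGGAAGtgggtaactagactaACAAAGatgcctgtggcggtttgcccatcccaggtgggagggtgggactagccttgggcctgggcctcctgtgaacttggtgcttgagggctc
Zap70, first start, chr1:36761548-36761797, plus strand: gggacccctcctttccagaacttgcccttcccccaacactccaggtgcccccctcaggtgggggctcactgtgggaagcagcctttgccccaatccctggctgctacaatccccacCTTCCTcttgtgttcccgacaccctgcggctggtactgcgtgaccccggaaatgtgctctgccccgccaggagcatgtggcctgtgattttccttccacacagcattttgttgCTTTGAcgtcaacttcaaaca
Lat, chr7:126369569-126369818, minus strand: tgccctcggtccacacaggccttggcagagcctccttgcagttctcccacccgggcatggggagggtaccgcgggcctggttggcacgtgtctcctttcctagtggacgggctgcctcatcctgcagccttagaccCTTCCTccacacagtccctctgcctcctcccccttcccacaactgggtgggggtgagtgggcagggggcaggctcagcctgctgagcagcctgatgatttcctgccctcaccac
Fyn, chr10:39369549-39369798, plus strand: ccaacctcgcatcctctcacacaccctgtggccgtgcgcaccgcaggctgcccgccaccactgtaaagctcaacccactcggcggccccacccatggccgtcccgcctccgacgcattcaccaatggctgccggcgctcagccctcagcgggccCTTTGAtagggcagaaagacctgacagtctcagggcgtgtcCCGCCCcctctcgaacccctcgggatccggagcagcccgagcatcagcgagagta
Lcp2, chr11:34046678-34046927, plus strand: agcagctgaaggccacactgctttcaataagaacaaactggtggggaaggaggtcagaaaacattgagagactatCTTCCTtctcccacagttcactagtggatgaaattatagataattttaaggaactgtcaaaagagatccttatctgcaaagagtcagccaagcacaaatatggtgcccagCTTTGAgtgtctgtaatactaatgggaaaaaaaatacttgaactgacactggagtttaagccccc
The ETS letters were present in 9 of the 11 windows, against 29.5% of the 32851 windows of this length over all genes. The upstream window of Lck held them 3 times, at 175, 82 and 10 bases before the start, and the windows of Zap70 (first start), Lat and Lcp2 held them once, at 134, 114 and 175 bases. The window of Fyn, with a GC content of 67.2%, held none and had a GC box 55 bases before the start, while that of Lcp2 had a GC content of 41.2%. The most downstream window of Zap70, not printed above, also held none. The RUNX letters were present in 3 of the 11 windows, against 14% of all windows, and the TCF/LEF letters in 6 of 11, against 27.6%. The GC box was present in 2 of 11, against 32.7%. These matches are descriptions of letters, not sites, and members with and without a called change both held the ETS letters.

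Among the kinases, Lck changed most. Lck (ENSMUSG00000000409.14, chromosome 4, 129548344 to 129573641, minus strand) had 24 counts in each of WT 1 and WT 2, against 641 and 1539 in KO 1 and KO 2. On the scale of normalized CPM, which puts the libraries on a common scale through TMM factors (trimmed mean of M-values), this was 7.18 and 5.91 against 121 and 267. Both libraries titled KO lay far above both titled WT, and KO 2 had 2.20 times the level of KO 1, with exact 95% counting limits from 2.01 to 2.42. The means were 6.55 ± 0.893 (SD, n = 2) and 194 ± 103 (SD, n = 2), and KO exceeded WT by 4.89 on the log2 scale, with a standard error (SE) of 0.58 and 95% limits of 3.58 and 6.20 (edgeR adjusted p = 0.0172). Without KO 2 the log2 fold change was 4.17, still past the threshold.

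Zap70 (ENSMUSG00000026117.10, chromosome 1, 36761798 to 36782818, plus strand), the kinase that docks on phosphorylated CD3 and zeta chains, followed. It had 9 and 22 counts in WT 1 and WT 2 and 280 and 440 in KO 1 and KO 2, or 2.69, 5.42, 53.0 and 76.4 normalized CPM. The groups did not overlap, and the libraries titled WT differed from each other within counting error. KO exceeded WT by a log2 value of 3.97 (SE 0.57, edgeR adjusted p = 0.0269). Without WT 1 it was 3.52 and no longer past the threshold (edgeR adjusted p = 0.0542, where the 13 alternatives ranged from 1.05e-07 to 0.0542).

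Fyn (ENSMUSG00000019843.14, chromosome 10, 39368855 to 39565381, plus strand), the other Src family kinase of the pathway, was not called. It had 98, 194, 497 and 352 counts in the order WT 1, WT 2, KO 1, KO 2, or 29.3, 47.8, 94.1 and 61.1 normalized CPM. The groups did not overlap, but WT 2 and KO 2 lay close together. Its log2 fold change of 1.01 (SE 0.47, 95% limits -0.05 and 2.07) did not reach the threshold (edgeR adjusted p = 0.385). None of 13 alternative settings called it, with adjusted p-values from 0.0792 to 0.9999.

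Levels of different genes were compared per kilobase of annotated exon. The length joined all annotated exons of a gene, whether or not they were expressed here, so such comparisons are approximate. On this scale, Lck stood at 0.365 and 0.184 of the level of Fyn in WT 1 and WT 2, and at 1.92 and 6.51 times that level in KO 1 and KO 2. The order of these paralogs thus turned between the groups as titled. The groups of this ratio did not overlap, where the smallest two-sided p that exact permutation of 2 and 2 libraries allows is 0.3333.

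Of the adaptors, Lat was called and Lcp2 was not. Lat (ENSMUSG00000030742.7, chromosome 7, 126363824 to 126369570, minus strand), the transmembrane scaffold phosphorylated by ZAP-70, had 14 and 16 counts in the libraries titled WT and 279 and 225 in those titled KO. In normalized CPM it was 4.19 and 3.94 against 52.8 and 39.1, nearly equal in the libraries titled WT and 0.740 times as high in KO 2 as in KO 1. The difference was 3.49 on the log2 scale (SE 0.53, edgeR adjusted p = 0.0295), which became 3.47 without WT 1 and then missed the threshold (edgeR adjusted p = 0.0541, the highest of the 13 alternatives, with a lowest of 9.60e-06). The microRNA gene Mir7058 covers 2.71% of its exon bases and Mir8119 0.854% of those of Lck, and reads there may have been counted as ambiguous.

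Lcp2 (ENSMUSG00000002699.13, chromosome 11, 34046920 to 34092295, plus strand), which encodes the cytosolic adaptor SLP-76, was the most abundant member in counts in 3 of the 4 libraries, with 609 and 1275 in the libraries titled WT and 1057 and 1406 in those titled KO. Its normalized CPM of 182, 314, 200 and 244 placed both libraries titled KO between those titled WT. Its log2 fold change was -0.16 (SE 0.47, 95% limits -1.21 and 0.89, edgeR adjusted p = 0.908), and the sign turned with scaling by library totals alone (0.14) and without WT 2 (0.24). The noncoding gene 4930469K13Rik covers 6.32% of its exon bases on the other strand, and the strand setting of the counting is not stated.

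Ptpn22 (ENSMUSG00000027843.13, chromosome 3, 103859795 to 103912247, plus strand), the inhibitory phosphatase, had 40 and 98 counts in WT 1 and WT 2 and 355 and 316 in KO 1 and KO 2. This was 11.96, 24.1, 67.2 and 54.9 normalized CPM, without overlap of the groups. The log2 fold change of 1.75 (SE 0.50, 95% limits 0.63 and 2.88) did not pass the threshold over all genes (edgeR adjusted p = 0.180, range 0.0164 to 0.9999 over 13 alternatives).

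Of the surface receptors, Cd6 passed the threshold and Cd2 and Cd5 came close to it. Cd2 (ENSMUSG00000027863.8, chromosome 3, 101275899 to 101287939, minus strand) had 38 and 88 counts in the libraries titled WT and 577 and 613 in those titled KO, or 11.4, 21.7, 109 and 106 normalized CPM. The groups did not overlap, and the difference of 2.70 on the log2 scale just missed the threshold (SE 0.49, edgeR adjusted p = 0.0518). In DESeq2, and in edgeR without a filter on low counts, Cd2 was past the threshold, with adjusted p-values of 9.47e-05 and 0.000187, and over its 13 alternatives the adjusted p ranged from 9.47e-05 to 0.564.

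Cd5 (ENSMUSG00000024669.8, chromosome 19, 10717116 to 10739002, minus strand) had the lowest mean normalized CPM of the members in the libraries titled WT. It had 9 and 3 counts there, against 140 and 149, and in WT 1 Zap70 had 9 as well. The pooled ratio of Cd5 was 16.2 with an exact 95% counting interval from 9.10 to 31.6. The normalized CPM of 26.5 and 25.9 in KO 1 and KO 2 were nearly equal. Its log2 fold change was 3.95 (SE 0.73, edgeR adjusted p = 0.0523, range 3.04e-05 to 0.0861 over 13 alternatives), and it became 5.04 without WT 1 and 3.22 without WT 2. The libraries titled WT held 12 counts in all.

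Cd6 (ENSMUSG00000024670.17, chromosome 19, 10789341 to 10830058, minus strand), which lies beside Cd5 and encodes a related receptor, had 15, 17, 161 and 507 counts, or 4.49, 4.19, 30.5 and 88.0 normalized CPM. The libraries titled WT were alike and those titled KO were not, with KO 2 at 2.89 times KO 1 (exact 95% counting limits 2.41 and 3.47). The change was 3.77 on the log2 scale (SE 0.64, edgeR adjusted p = 0.0425) and became 2.77 without KO 2, still past the threshold.

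The members therefore did not all differ between KO 1 and KO 2 in the same direction. Lck, Cd6, Zap70 and Lcp2 were higher in KO 2, by 2.20, 2.89, 1.44 and 1.22 times, Fyn and Lat were lower, at 0.650 and 0.740 times, and so was Ptpn22 at 0.816 times. Cd2 and Cd5, at 0.974 and 0.976 times, differed by less than counting error. Cd3g and Cd3d were also lower in KO 2, at 0.364 and 0.588 times, and Cd3e was at 1.03 times. Differences as large as that of Cd6 were seen in 15.7% of all genes tested between these libraries, and as large as that of Lck in 28.2%. This compares 2 libraries and not conditions.

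In order of CPM per kilobase, the libraries titled WT had Lcp2 first at 55.7 ± 20.9 (SD, n = 2), Cd2 at 9.49 ± 4.19 and Fyn at 8.84 ± 2.998. Ptpn22 at 2.67 ± 1.27, Lck at 2.23 ± 0.305, Lat at 1.47 ± 0.0624 and Zap70 at 1.36 ± 0.645 came next, and Cd6 at 0.544 ± 0.0263 and Cd5 at 0.348 ± 0.280 were last. The ranges of Cd2 and Fyn, of Ptpn22 and Lck, of Lat and Zap70 and of Cd6 and Cd5 overlapped, and those of the other neighbors did not. In the libraries titled KO, the means of Lck at 66.3 ± 35.2 (SD, n = 2), Cd2 at 61.9 ± 1.13 and Lcp2 at 49.8 ± 6.98 were the 3 highest. Lck stood at 41.4 in KO 1, below Cd2 at 62.7 and Lcp2 at 44.9, and at 91.2 in KO 2, above Cd2 at 61.1 and Lcp2 at 54.8, so its range held those of both and its lead rests on KO 2. Zap70 at 21.6 ± 5.53, Fyn at 17.8 ± 5.34 and Lat at 16.6 ± 3.51 formed a middle group whose neighbors overlapped, and Ptpn22 at 9.01 ± 1.29, Cd6 at 7.44 ± 5.11 and Cd5 at 5.31 ± 0.0906 followed, again with overlap between neighbors.

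By share of the summed member counts, Lcp2 led in WT 1, WT 2 and KO 1, and Lck in KO 2. The 9 members together had 856 and 1737 counts in WT 1 and WT 2 and 3987 and 5547 in KO 1 and KO 2, and without Lcp2 they had 247, 462, 2930 and 4141. Lcp2 made up 71.1% (exact Clopper-Pearson 95% interval 68.0 to 74.2) and 73.4% (71.3 to 75.5) of the member counts in the libraries titled WT, and 26.5% (25.2 to 27.9) and 25.3% (24.2 to 26.5) in those titled KO. Lck made up 2.80% and 1.38% in WT 1 and WT 2, and 16.1% and 27.7% in KO 1 and KO 2. All counting intervals given here leave out amplification, as the reads carry no molecular identifiers, and so they cover counting error alone.

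Set against the CD3 transcripts of the same library, the comparison asks whether the members moved with the receptor chains themselves. Cd3e, Cd3d and Cd3g summed to 116 and 180 counts in the libraries titled WT and to 3220 and 1950 in those titled KO. Some members were lower per CD3 count in the libraries titled KO, and the others were not distinguished from the CD3 chains. Fyn, Lcp2 and Ptpn22 were lower past the threshold (3 of 9 members, where 91.6% of all genes tested were called lower on this scale), and the median log2 ratio of the members was -0.04, beside -3.43 over all genes. No member was called higher, as were 0.355% of all genes. Cd2 also lay lower in both libraries titled KO, so that 4 of 9 members were lower without overlap, against 94.2% of all genes, and no member was higher without overlap, against 1.06%.

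**Figure D2:**
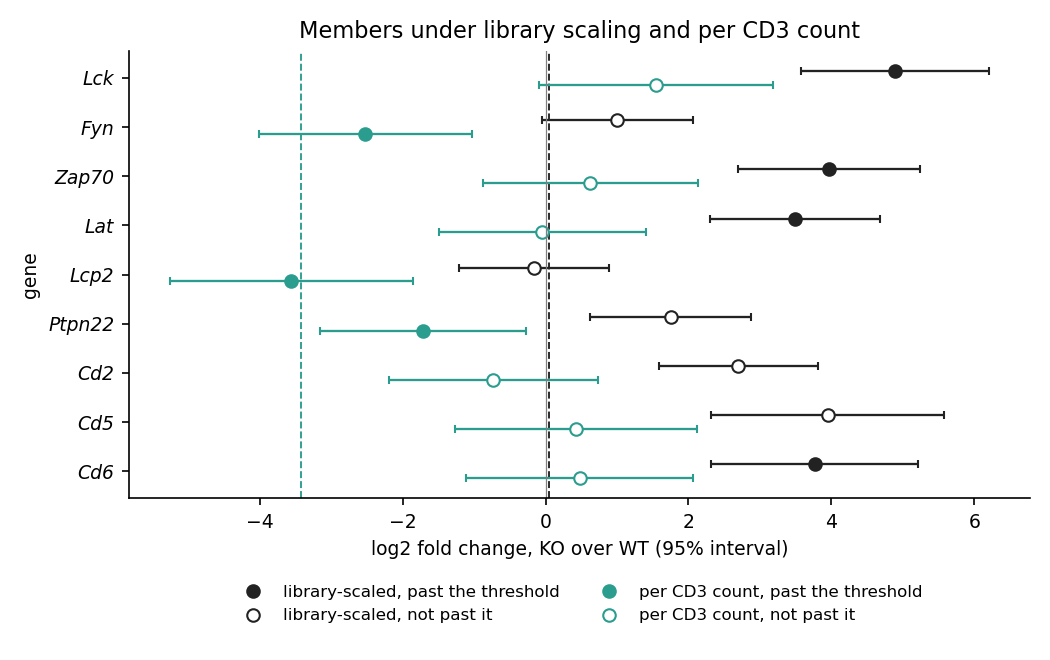
Log2 fold change of KO over WT (x axis, points with 95% intervals) for each member (y axis), in black under library scaling and in green per CD3 count, filled where past the threshold, with dashed lines at the median over all genes tested on each scale. Per CD3 count, Lck, Zap70, Lat, Cd2, Cd5 and Cd6 lie around 0 with intervals that include it, and Lcp2 lies near the median of all genes.

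Per 100 CD3 counts, Lcp2 had 525 and 708 counts in WT 1 and WT 2 and 32.8 and 72.1 in KO 1 and KO 2. The log2 ratio was -3.56 (SE 0.83, edgeR adjusted p = 0.000456), and it was -4.23 without KO 2, still past the threshold. Fyn had 84.5 and 108 against 15.4 and 18.1, a log2 ratio of -2.52 (SE 0.73, edgeR adjusted p = 0.00243). Without WT 2 the log2 ratio of Fyn was -2.33 and missed the threshold. Ptpn22 had 34.5 and 54.4 against 11.0 and 16.2, a log2 ratio of -1.71 (SE 0.70, edgeR adjusted p = 0.0241). Its call was lost without WT 1, where the log2 ratio was -2.00, and without WT 2, where it was -1.34. It was also lost with the replicate number as a block (log2 ratio -1.70, edgeR adjusted p = 0.0932). The same held with T cell receptor constant regions as the denominator (log2 ratio -2.29, edgeR adjusted p = 0.0522). All members of this set were low per CD3 count in both libraries titled KO, and KO 1 was lower than KO 2 for each.

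**Figure D3:**
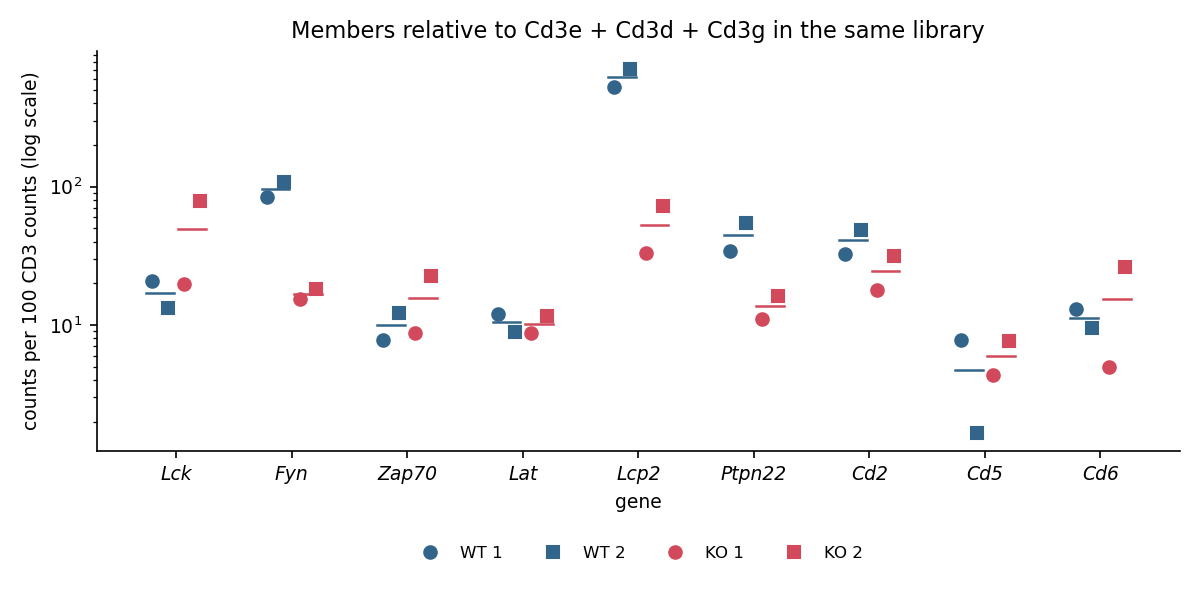
Counts of each member per 100 counts of Cd3e, Cd3d and Cd3g in the same library (y axis, log scale) by gene (x axis), with circles for library 1, squares for library 2, blue for WT, red for KO, and bars at the arithmetic mean. Lcp2, Fyn and Ptpn22 lie lower in both KO libraries, while Lck, Zap70 and Cd6 have KO 2 above the WT points and KO 1 among or below them.

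Lck had 20.7 and 13.3 counts per 100 CD3 counts in WT 1 and WT 2, and 19.9 and 78.9 in KO 1 and KO 2. KO 1 thus lay within the range of the libraries titled WT and only KO 2 above it, and the log2 ratio of 1.55 had a 95% interval from -0.08 to 3.18 (edgeR adjusted p = 0.0671). It was 2.23 without KO 1, where it passed the threshold (edgeR adjusted p = 0.000371), and 0.25 without KO 2, over a range of adjusted p from 0.000371 to 0.698 in 10 alternatives. Zap70 had 7.76 and 12.2 against 8.70 and 22.6, a log2 ratio of 0.63 with a 95% interval from -0.88 to 2.13, which turned to -0.22 without KO 2. Lat, at 12.1 and 8.89 against 8.66 and 11.5, had a log2 ratio of -0.04 with a 95% interval from -1.49 to 1.40.

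Cd6, like Lck, was high in KO 2 and not in KO 1, with 12.9 and 9.44 against 5 in KO 1 and 26.0 in KO 2, and its log2 ratio of 0.48 became 1.23 without KO 1 and -1.15 without KO 2. Cd5, at 7.76 and 1.67 against 4.35 and 7.64, had a log2 ratio of 0.43 with a 95% interval from -1.27 to 2.12, which was 1.84 without WT 1 and -0.37 without WT 2. Cd2, at 32.8 and 48.9 against 17.9 and 31.4, had a log2 ratio of -0.73 with a 95% interval from -2.19 to 0.73. The error of the CD3 sum is shared by all genes on this scale, so the calls are not independent of one another, and Cd3g made up 50.7% of the CD3 counts in KO 1 and 33.2% in KO 2.

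Related genes were compared next, namely kinases, adaptors, phosphatases and other enzymes of the same or neighboring families, most of them used in other blood cells and some, such as Src and Yes1, expressed broadly, together with Cd48 and Alcam, which encode ligands of CD2 and CD6. Of these 16 counterparts 13 were tested and none passed the threshold in either direction, in edgeR's quasi-likelihood test, where 0.549% of all genes tested were called higher and 0.0253% lower. At an unadjusted p under 0.05, 1 was higher and 3 were lower, where 9.44% and 4.23% of all genes were. None was called in DESeq2, where 2.36% of all genes tested were called higher and 0.473% lower. In edgeR without KO 2, 3 were called lower and 0 higher, where 4.08% and 5.64% of the 12852 genes then tested were. Their median log2 fold change was -0.42. Among Src family kinases of myeloid and B cells, Lyn had 363 and 514 normalized CPM in WT 1 and WT 2 and 286 and 202 in KO 1 and KO 2, a log2 fold change of -0.84. Fgr had 197 and 189 against 116 and 173, with -0.42. Both lay lower in both libraries titled KO, as did 7 of the 13 counterparts tested, where 22.6% of all genes tested did. In the other direction, 2 counterparts lay higher in both, where 25.3% of all genes tested did. Src, at 4.79 and 2.96 against 5.30 and 5.56 normalized CPM, was scarce. Blk and Yes1 had 6 and 12 counts in KO 1 and 0 in the other libraries, and Clnk, an adaptor related to SLP-76, had 4 counts in WT 1 and 0 elsewhere, so they were not tested.

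Syk, the counterpart of Zap70 in B cells and myeloid cells, had 295 and 200 normalized CPM in WT 1 and WT 2 and 100 and 195 in KO 1 and KO 2, a log2 fold change of -0.75. Lat2, the adaptor related to LAT in those cells, had 360 and 252 against 114 and 208, with -0.92, although 36.3% of its exon bases are shared with Rfc2 on the other strand. Blnk, related to SLP-76 in B cells and macrophages, had 44.9 and 69.0 against 18.7 and 30.0, with -1.22. The phosphatase gene Ptpn18 had 242 and 186 against 85.8 and 83.0, with -1.34, and its relative Ptpn12 overlapped between the groups, with 0.26. The signaling enzymes Plcg2 and Btk also overlapped, with -0.28 and -0.34. Cd48, which encodes the ligand of CD2 in mice, had 146 and 172 against 198 and 135, with 0.06, and Alcam, which encodes a ligand of CD6, had 14.4 and 15.3 against 45.8 and 31.6, with 1.38. The edgeR adjusted p-values of the 13 counterparts ran from 0.226 to 0.968, so that none passed the threshold once adjusted over all genes.

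Ratios of member to counterpart per kilobase, taken within a library, do not depend on its scaling. Lck stood at 0.0275 and 0.0160 of the level of Lyn in WT 1 and WT 2, and at 0.590 and 1.84 in KO 1 and KO 2. Zap70 stood at 0.0285 and 0.0850 of Syk against 1.66 and 1.23, so that Syk exceeded Zap70 by 35.0 and 11.8 times in the libraries titled WT and was exceeded by it in both titled KO. Lat stood at 0.0110 and 0.0148 of Lat2 against 0.439 and 0.178, and thus remained the scarcer adaptor in all 4 libraries. Fyn stood at 0.0754 and 0.0869 of Lyn against 0.307 and 0.282. Lcp2 exceeded Blnk in every library, by 5.45 and 6.12 against 14.3 and 10.9 times. None of these 5 ratios overlapped between the groups, and the exact permutation test gave each a two-sided p of 0.3333, the smallest it can give here. Except for Lcp2 over Blnk, the member lay higher and the counterpart lower in both libraries titled KO. The separation of those ratios follows from that and adds nothing to it.

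**Figure D4:**
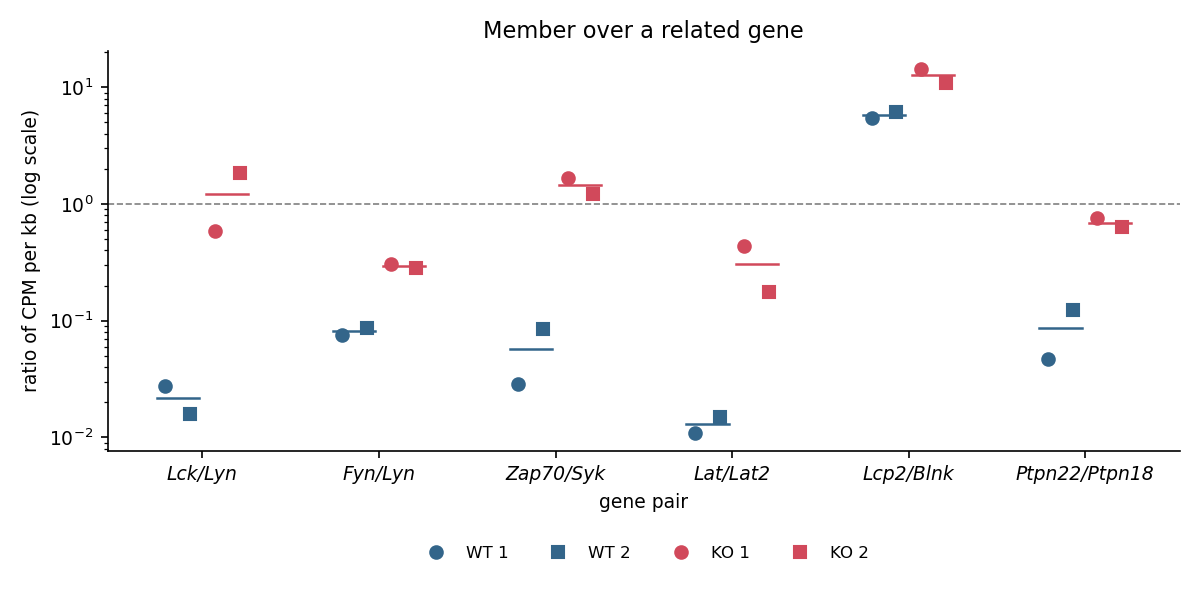
Ratio of a member's CPM per kilobase to that of a related gene (y axis, log scale; dashed line at equal levels) for 6 pairs (x axis), with circles for library 1, squares for library 2, blue for WT, red for KO, and bars at the arithmetic mean. Both KO points lie above both WT points in every pair. The points of both KO libraries for Zap70 against Syk, and that of KO 2 for Lck against Lyn, lie above the line where both WT points lie below it.

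The wider pathway was described from a list of its other genes. Of 45 further genes of T cell receptor signaling 44 were tested, of which 5 rose past the threshold, 0 fell and 39 did not pass (edgeR, where 0.549% of all genes tested were called higher and 0.0253% lower). The median log2 fold change was 0.80, beside 0.05 over all genes. In both libraries titled KO, 24 genes lay higher and 8 lower, where 25.3% and 22.6% of all genes did, and the log2 fold changes ran from -1.11 to 5.37. The genes past the threshold were Prkcq, the protein kinase C of the immune synapse, Skap1 and Sh2d2a, adaptors of T cells, Ubash3a, an inhibitor of receptor signaling, and Cd28, the main costimulatory receptor.

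Prkcq had 2 and 5 counts in the libraries titled WT and 125 and 116 in those titled KO, a log2 fold change of 4.51 (SE 0.72, edgeR adjusted p = 0.0321). Skap1 had 7 and 9 against 218 and 199, with 4.12 (edgeR adjusted p = 0.0269), and Ubash3a 7 and 6 against 106 and 146, with 3.66 (edgeR adjusted p = 0.0480). Sh2d2a had 35 and 53 against 565 and 978, with 3.55 (edgeR adjusted p = 0.0269), and Cd28 had 15 and 12 against 184 and 230, with 3.33 (edgeR adjusted p = 0.0396). Sh2d1a, the adaptor of SLAM family receptors, had 1 and 3 against 194 and 55 counts, a pooled ratio of 41.7 with an exact 95% counting interval from 16.1 to 154, and it missed the threshold (edgeR adjusted p = 0.0510). Its groups did not overlap, and it shares 26.6% of its exon bases with Tenm1 on the other strand. Per CD3 count, 31 of the 44 genes were called lower and none higher, where 91.6% and 0.355% of all genes were, and the 5 genes past the threshold under library scaling were not called, with log2 ratios from -0.14 for Cd28 to 1.08 for Prkcq.

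**Figure D5:**
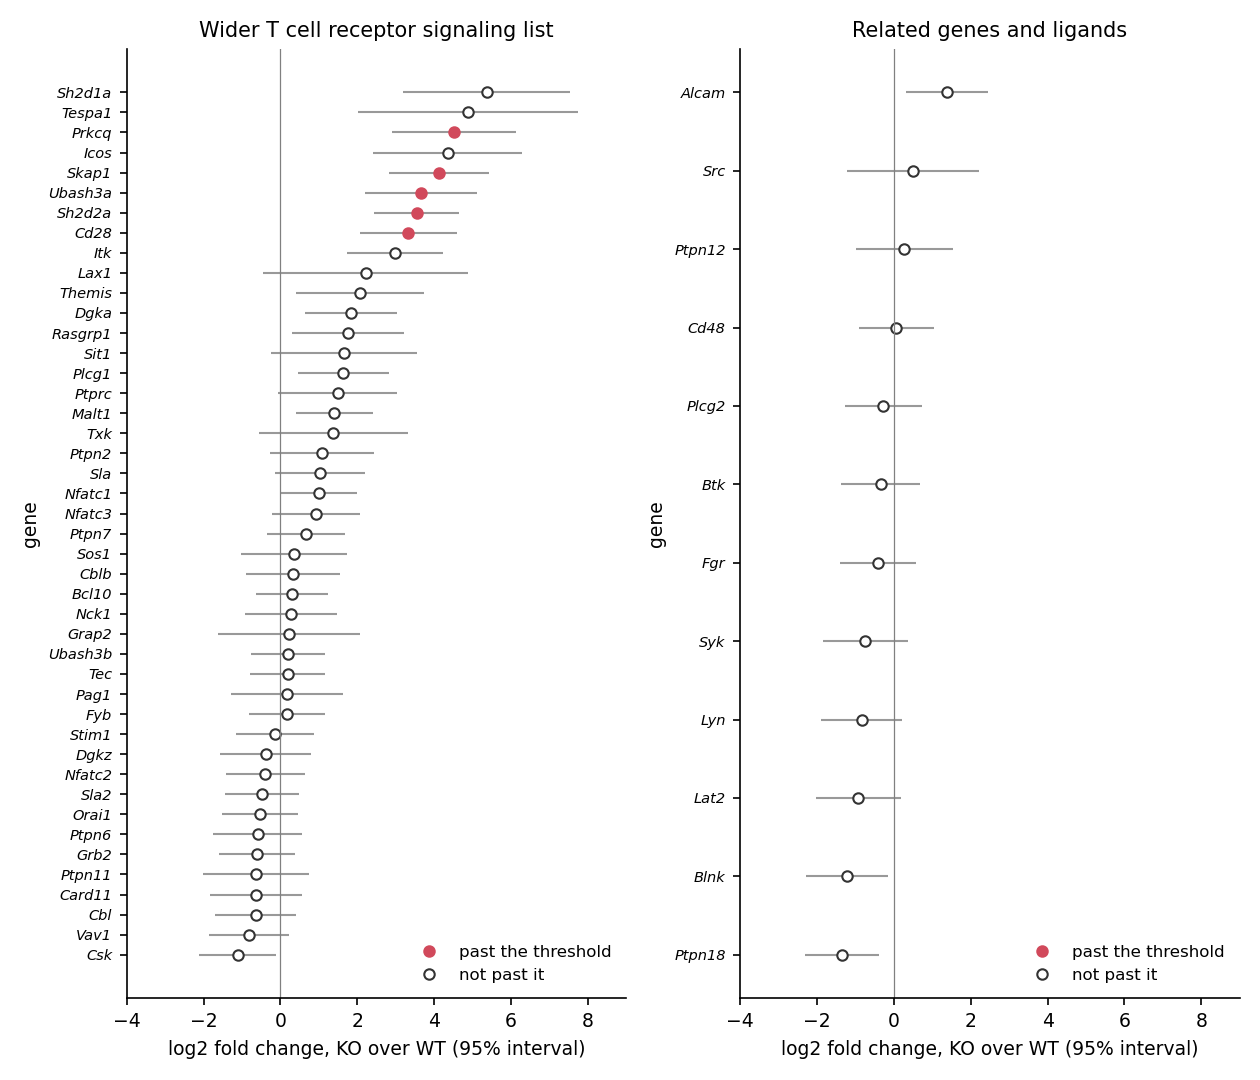
Log2 fold change of KO over WT (x axis, points with 95% intervals) for 44 wider genes of T cell receptor signaling (left) and 12 of the counterparts (right), one gene per line on the y axis, in order of change. Filled red points are past the threshold, and they number 5 on the left and 0 on the right.

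Genes whose pattern over the 4 libraries was closest to a member were found by the root-mean-square (RMS) distance of log2 CPM, each gene centered on its own mean. Nearest to Lck were Podnl1 at 0.12, with 1, 1, 31 and 71 counts in the order WT 1, WT 2, KO 1, KO 2, Gm28513 at 0.21 and Grb7 at 0.34. Nearest to Fyn were Cops3 at 0.03, Riok1 at 0.05 and C330018D20Rik at 0.06. Nearest to Lcp2 were Tada1 at 0.01, Ppp5c at 0.02 and Tgfbr2 at 0.04. With 4 libraries and 11019 candidate genes, close matches are easy to find, and those of Lck rest on few counts. Among the members themselves, Fyn and Ptpn22 were closest at 0.44, and Lck and Lcp2 were farthest apart at 2.49.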

How the data were processed

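The authors deposited raw read counts per gene symbol, 1 table per library. Per the submitters' processing notes and the study's methods, HISAT2 2.1.0 and HTSeq 0.11.0 were used with mm10. The annotation, strand setting and trimming are not given in the sources used here. Rows naming no gene held 71.2% to 79.5% of reads and were left out. Of 55367 symbols, 96.3% matched GENCODE M21 (GRCm38), the source of coordinates (1-based) and exon lengths.

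The test was the quasi-likelihood test of edgeR 4.0.16 (R 4.3.3), with filterByExpr (minimum count 10, total 15), TMM factors, glmQLFit and glmQLFTest, a design of the group alone, two-sided, prior count 0.125, and Benjamini-Hochberg adjustment over all 11837 genes tested. The SE was the absolute log2 fold change divided by the square root of F. The fit per CD3 count used the summed counts of Cd3e, Cd3d and Cd3g as offset. Scripts were tested on simulated data. Alternatives were other scalings, filters and denominators, DESeq2 1.42.0, replicate blocks, and each library left out.

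The members, lists and tests were chosen with earlier results of these data known. Genes outside the members were named by rule: the related genes and ligands (counterparts), up to 6 wider genes past the threshold, filled to 6 by lowest p, and the 3 genes nearest in pattern to Lck, Fyn and Lcp2 among genes with a mean of at least 20 counts in the higher group; marker genes at 0 in all libraries were named after their values were seen. A counterpart and a marker gene that enter the list totals are not reported here by name.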

Additional observations from a re-analysis of the deposited data

How the results depend on the processing

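The number of members past the threshold was 4, and it was between 4 and 6 under other scalings, other filters, DESeq2, a prior count of 2 and the replicate block. It ran from 3 to 7 with 1 library left out, 7 being reached without KO 2 and 3 without WT 1; the lone library of a group is then assumed to vary like the other group. Scaling by library totals alone shifted the median of all genes from 0.05 to 0.38 and the median of the members to 3.83, which ran from 2.77 to 3.47 with 1 library left out. Over all genes the number past the threshold was 68, 65 of them higher in the libraries titled KO. It became 136 (133 higher) with library totals, 583 (505) without a filter and 378 (315) in DESeq2, and ran from 113 to 1249 (99 to 725 higher) with 1 library left out. The wider list had 8, 9 and 8 genes past the threshold in the same 3 settings and from 4 to 10 with 1 library left out, and the related genes and ligands from 0 to 3. Which members were past the threshold per CD3 count varied with the library left out. With 1 library left out, the log2 ratio per CD3 count ran from -0.22 to 1.15 for Zap70 and from -0.26 to 0.18 for Lat. It ran from -4.23 to -3.10 for Lcp2, from -0.37 to 1.84 for Cd5 and from -1.15 to 1.23 for Cd6. That of Cd5 was -0.25 with T cell receptor constant regions as denominator and that of Cd6 -0.0016 with Cd8a and Cd8b1. The library-scaled value of Lcp2 was 0.14 with library totals and ran from -0.55 to 0.24 with 1 library left out. The cause of these shifts was not tested.

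Libraries with the same replicate number were not paired by the labels, and their deviations from the group means had a correlation of -0.19 over 11837 genes. With the replicate block 215 genes were past the threshold (201 higher), with 8 genes of the wider list. With the crossed pairing, chosen after seeing the data, 647 were past it (535 higher), with 7 members and 12 genes of the wider list. Low counts in the libraries titled WT, down to 3 for Cd5, leave the size of the folds uncertain.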
